A study of Homo sapiens with 10 samples.

Results

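In MDA-MB-453 cells, 558 H3K27ac regions were held by the peak lists of both untreated libraries and by neither list made after TWEAK, out of 42831 regions that the 4 lists of this line gave when peaks overlapping by 1 bp or more were merged on chromosomes 1 to 22 and X. These regions, called lost here, made up 1.30% of the merged regions and covered 446.683 kb. The reverse pattern, a peak in both TWEAK lists and neither untreated list, was found in 570 regions (1.33%). The lost regions were chosen by the presence and absence of peaks in these 4 lists, so their state in MDA-MB-453 is a description and was not tested. A pattern that needs 4 lists to agree is rare, and with 1 list left out it was met by 2319 regions (without untreated replicate 1), 1594 (without untreated replicate 2), 1404 (without TWEAK replicate 1) or 1164 (without TWEAK replicate 2).

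H3K27 acetylation is deposited on nucleosomes beside active promoters and enhancers, and a peak in a ChIP-seq list marks such a stretch of chromatin. TWEAK is a cytokine of the TNF superfamily that binds the receptor Fn14, and this receptor signals to both branches of the NF-κB pathway and, through MAP kinases, to AP-1. NF-κB and AP-1 factors are known mainly for adding activity to enhancers, and the mark itself is removed by histone deacetylases.

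MDA-MB-453 and SKBR3 are established HER2 breast cancer lines. In each line, 2 untreated libraries were compared with 2 libraries of cells given TWEAK at 10 ng/ml for 48 h, with fresh ligand at 24 h and a serum starvation of 8 h. The promoter of ERBB2 (the HER2 gene) had a peak in all 4 lists of both lines, as did that of FOXA1, a luminal transcription factor, and that of PTPRC, a leukocyte gene, had one in 0 lists of either line. The MDA-MB-453 lists held between 36148 and 37813 peaks and the SKBR3 lists between 43684 and 51687. Reads were not analysed here and sequencing depth is unknown. An exact permutation test of 2 libraries against 2 cannot pass a threshold of 0.05, and no p-value is given.

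The lost regions with the highest rank in the untreated lists that touched no protein-coding exon in the stretch shown lay near SLC7A5, BRINP1 and SPOCK1. Their hg38 sequence is printed on the forward strand, 5′ to 3′, in 200 bases, to show lost regions of high rank in the untreated lists. The SLC43A1 promoter ranked higher and is not printed. Capitals mark a match to the NF-κB motif or to the AP-1 motif, which reads TGAGTCA on one strand and TGACTCA on the other.
near SLC7A5, chr16:87806682-87806881: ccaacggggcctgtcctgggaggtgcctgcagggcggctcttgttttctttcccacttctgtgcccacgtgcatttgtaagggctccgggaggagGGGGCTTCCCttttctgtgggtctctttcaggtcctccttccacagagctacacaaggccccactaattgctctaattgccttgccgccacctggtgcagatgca
near BRINP1, chr9:119111928-119112127: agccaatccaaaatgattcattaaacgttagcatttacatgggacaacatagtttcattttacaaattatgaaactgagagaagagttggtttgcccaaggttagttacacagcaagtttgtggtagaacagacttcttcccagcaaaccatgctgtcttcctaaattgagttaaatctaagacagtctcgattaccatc
near SPOCK1, chr5:136724009-136724208: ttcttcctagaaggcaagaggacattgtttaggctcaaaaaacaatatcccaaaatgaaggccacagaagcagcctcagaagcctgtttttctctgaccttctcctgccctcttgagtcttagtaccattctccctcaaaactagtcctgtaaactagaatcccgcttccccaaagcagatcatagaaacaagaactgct

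A second set is shown for lost regions that held a motif of the factors downstream of Fn14. They were taken from the regions named by rule, with the match inside the region and no protein-coding exon in the stretch shown, and other lost regions with these motifs ranked higher. The regions in SLC25A24 and near RAD23B have an NF-κB match, and the regions in SLC2A2 and NRP1 have an AP-1 match. The region 33.3 kb from NFKBIA, the gene of the inhibitor IκBα, also has an NF-κB match. It was picked for that gene, past named regions of higher rank with this motif. The window near RAD23B holds both motifs.
in SLC25A24, chr1:108190784-108190983: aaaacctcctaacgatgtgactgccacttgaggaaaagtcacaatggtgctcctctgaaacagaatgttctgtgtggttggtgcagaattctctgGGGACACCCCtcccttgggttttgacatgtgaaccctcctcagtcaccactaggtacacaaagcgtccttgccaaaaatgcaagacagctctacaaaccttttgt
near RAD23B, chr9:107389498-107389697: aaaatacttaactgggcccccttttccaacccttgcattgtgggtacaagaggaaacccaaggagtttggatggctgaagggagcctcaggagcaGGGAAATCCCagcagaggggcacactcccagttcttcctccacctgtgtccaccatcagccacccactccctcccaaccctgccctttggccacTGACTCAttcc
near NFKBIA, chr14:35368671-35368870: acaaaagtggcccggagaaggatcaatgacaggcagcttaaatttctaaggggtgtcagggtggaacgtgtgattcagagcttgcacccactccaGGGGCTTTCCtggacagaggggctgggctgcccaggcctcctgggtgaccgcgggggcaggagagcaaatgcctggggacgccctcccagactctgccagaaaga
in SLC2A2, chr3:171002343-171002542: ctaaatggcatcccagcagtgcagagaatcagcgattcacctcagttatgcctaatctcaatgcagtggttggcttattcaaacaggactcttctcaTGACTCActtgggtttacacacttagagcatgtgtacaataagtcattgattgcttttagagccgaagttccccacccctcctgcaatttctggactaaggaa
in NRP1, chr10:33315190-33315389: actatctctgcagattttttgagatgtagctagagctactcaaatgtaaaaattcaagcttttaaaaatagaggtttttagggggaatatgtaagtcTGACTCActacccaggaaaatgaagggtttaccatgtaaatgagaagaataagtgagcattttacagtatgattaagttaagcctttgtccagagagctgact

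A match is a description of the letters and does not show that a factor binds there. The region near NAMPT and the region at the SLC43A1 promoter, both described with their values further on, held neither motif in the 1000 bp around their midpoints.

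Lost regions were weak in the untreated lists that held them. The authors' −log10 q of their peaks had a median of 1.91 in untreated replicate 1 and 1.92 in untreated replicate 2, where the lowest value that entered a list was 1.00, a q-value of about 0.1. Their fold enrichment over background had a median of 2.90 and 2.98. Peaks were ranked within their own list by −log10 q, and given as a percentile, so that lists could be set side by side. The lost regions had a median percentile of 9.57 in replicate 1 (highest 41.8) and 11.8 in replicate 2 (highest 55.8), and 514 of them (92.1%) had a mean percentile under 25. A q-value under 1e-05 was reached in replicate 1 by 5 regions, in replicate 2 by 6 and in both by 0, while 547 reached it in neither list. When every list was held to that threshold, 320 regions met the lost pattern. None of the 558 could be among them, since none reached the threshold in both untreated lists.

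The ranks of a lost region in the untreated lists were only weakly related. Pearson's r between the percentiles was 0.205 over the 558 lost regions. It was 0.330 over the 1451 regions with a peak in both untreated lists and 1 TWEAK list, whose ranks were similarly low. It was 0.581 over the 11401 regions of all 4 lists whose mean percentile was no higher than that of the highest lost region. Those regions were spread over higher ranks, and the part of that spread in r was not tested. The median gap between the percentiles was 7.69, and 224 regions differed by over 10. The untreated peaks of a lost region also met only in part, sharing a median of 303.5 bp (51.1% of the merged region), and in 19 regions the shared stretch was under 10%. These regions were narrow, with a median width of 783 bp (236 to 2049), whereas regions of all 4 lists had a median of 1947 bp.

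**Figure D1:**
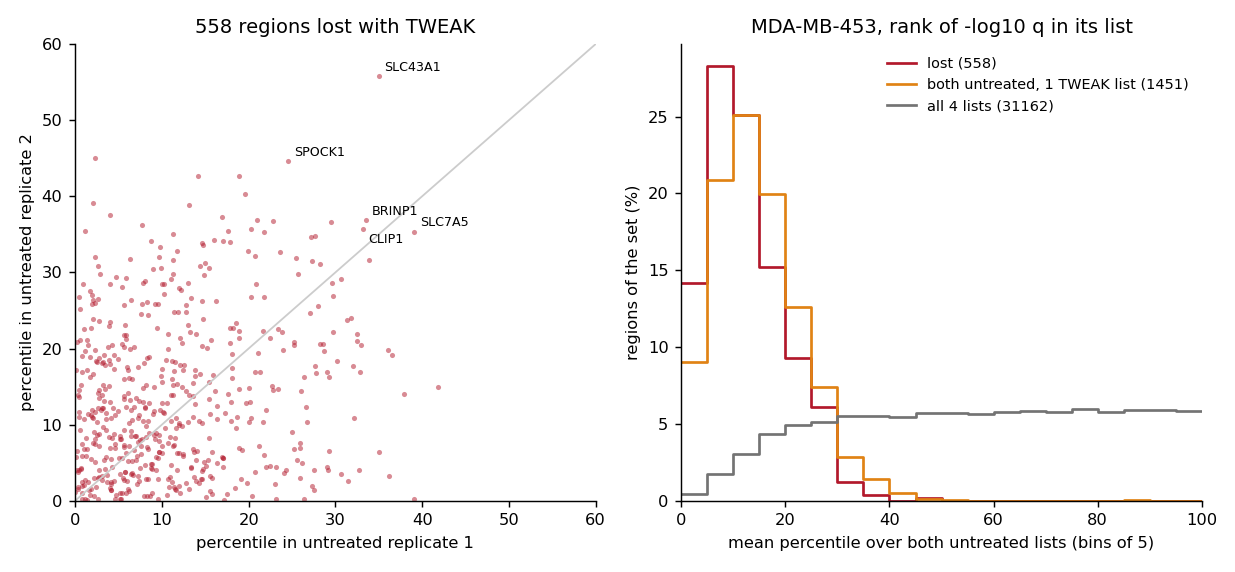
Left, each point is 1 of the 558 lost regions, placed by its percentile of −log10 q in untreated replicate 1 (x axis) and replicate 2 (y axis), with a line of equal rank and the 5 highest regions named. Right, the share of regions (%) by mean percentile over both untreated lists in bins of 5, where lost regions and those kept by 1 TWEAK list lie at the low end and the 31162 regions of all 4 lists are spread over the whole range.

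Just outside the rule lay 1451 regions with a peak in both untreated lists and in 1 of the TWEAK lists. Their mean percentile in the untreated lists had a median of 14.0, and the TWEAK peak that kept them out had a median −log10 q of 2.13, with 641 of them (44.2%) at a q-value above 0.01. In 846 this peak stood in TWEAK replicate 1 and in 605 in replicate 2. The lost regions thus had a larger set of weak regions beside them that differed by 1 peak of similar rank.

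The 12 lost regions with the highest mean percentile included 4 at starts of protein-coding genes. The highest was the promoter of SLC43A1, which encodes an amino acid transporter, at chr11:57493170-57494636. Its −log10 q was 4.79 in untreated replicate 1 and 9.44 in replicate 2, and its percentile 35.0 and 55.8. The nearest peak of either TWEAK list lay 12.7 kb away. The second region, chr16:87806196-87807737, covered the start of the non-coding gene ENSG00000260177 and lay 29.1 kb from SLC7A5, the gene of a large neutral amino acid transporter. Its −log10 q was 5.60 and 4.20, and the percentiles were 39.1 and 35.4. A single member had a percentile above 50 in any untreated list, and that was the SLC43A1 promoter.

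The region near BRINP1, a gene expressed in neurons, was intergenic at chr9:119111630-119112485 and had a −log10 q of 4.56 and 4.43. The region near SPOCK1, which encodes a proteoglycan, lay 254.8 kb from its start and had 3.30 and 5.93. An intronic region of CLIP1, a microtubule plus-end protein, was 293 bp wide and had 4.49 and 4.26. The BRINP1 region had a peak in 0 SKBR3 lists, and the SPOCK1 and CLIP1 regions in all 4.

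Next came the promoter of NCOA2, a coactivator of steroid receptors, with a −log10 q of 3.91 and 4.39, and a region 1031.7 kb from NSUN3 with 4.61 and 3.69. An intron of MGAT4C, a glycosyltransferase gene, had 3.65 and 4.12, and the region at a start of PLEKHA5 had 3.60 and 4.09. The NCOA2 and PLEKHA5 genes each had another start site with a region in all 4 lists. The region at a start of NFE2L1, a transcription factor of proteasome genes, had 2.70 and 5.49, an intron of the sorting nexin gene SNX13 had 2.76 and 5.01, and a region 133.6 kb from SNX18 had 4.07 and 3.39. The −log10 q was higher in replicate 2 for 7 of the 12 regions, and among these 12 only SLC43A1 had a value over 6.

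**Figure D2:**
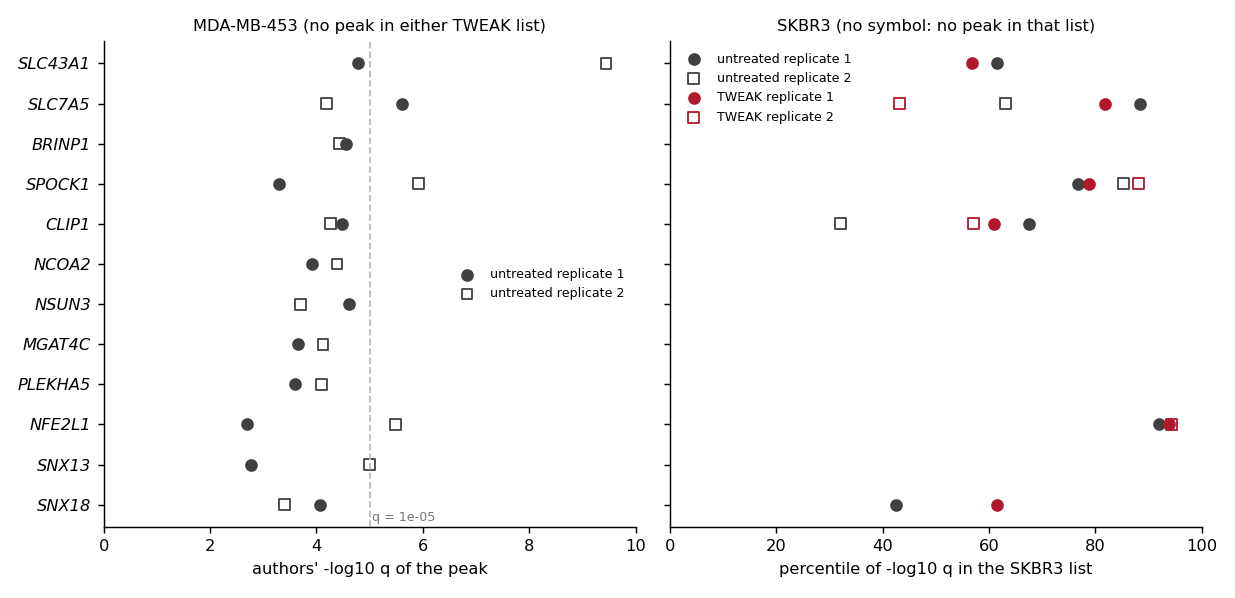
The 12 lost regions of highest rank, named by the nearest protein-coding gene. Left, the authors' −log10 q in the untreated MDA-MB-453 replicates (circle, replicate 1, and square, replicate 2) with a dashed line at a q-value of 1e-05. Right, the percentile in each SKBR3 list (grey, untreated, and red, TWEAK), where 6 of the 12 regions have no symbol because no SKBR3 list held them.

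Most lost regions lay away from promoters. Of the 558, 69 (12.4%, 95% Wilson interval 9.89 to 15.4) were no further than 1 kb from the transcription start (TSS) of a protein-coding or lncRNA gene, 14 (2.51%) in exons, 242 (43.4%) in introns and 233 (41.8%) between genes. The share within 1 kb of a TSS was 16.8% in gained regions (14.0 to 20.1), 14.3% in the regions just outside the rule (12.6 to 16.2) and 34.2% over all merged regions. The interval of the lost regions overlapped those of the gained regions and of the regions just outside the rule, and lay below that of all merged regions. The median distance to a protein-coding TSS was 21.2 kb, and 124 lost regions (22.2%) were over 100 kb away.

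The lost regions at protein-coding starts numbered 47 (8.42%, 6.39 to 11.02). The share was 14.2% in gained regions (11.58 to 17.3), 10.6% in those just outside the rule (9.13 to 12.3) and 29.9% over all merged regions. Lost and gained intervals did not overlap for this share, whereas the lost interval overlapped that of regions just outside the rule. In 27 of the 47 lost regions the gene had a region at one of its start sites in all 4 lists, and in 20 it had none. Beside SLC43A1, NCOA2, PLEKHA5 and NFE2L1, the highest were BEST1, a chloride channel gene, with percentiles of 27.3 and 31.5, RMND5A, a ubiquitin ligase subunit gene, with 14.2 and 42.7, and PBRM1, a subunit of the PBAF chromatin remodeller, with 29.7 and 26.9. PKD1L2, of the polycystin family, had 17.7 and 35.5. Among these 8 promoters, SLC43A1 was the one whose gene had no other start in all 4 lists. The region at PDK4, a kinase that restrains pyruvate oxidation and a gene with no other start in all 4 lists, ranked far lower, at 3.91 and 18.4.

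**Figure D3:**
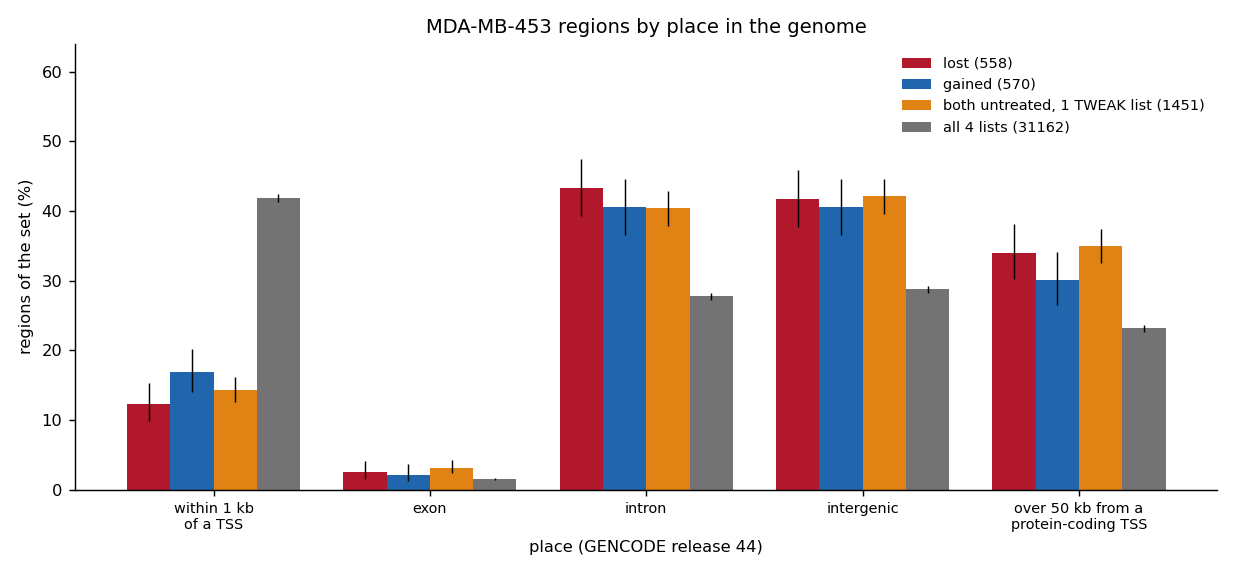
Share of regions (%, bars, with 95% Wilson intervals as lines) by place in the genome for lost, gained, just-outside and all-4-list regions. Lost regions are at 12.4% within 1 kb of a TSS against 41.9% for regions of all 4 lists, and at 43.4% in introns against 27.7%.

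The lost regions were spread thinly over genes and chromosomes. They had 525 different nearest protein-coding genes, and 301 of them lay inside 288 different host genes. Of the genes, 31 were nearest to 2 or more lost regions. AGAP1, which encodes an ARF GTPase-activating protein, had 3, of which 1 was upstream and 2 were in introns, with mean percentiles between 9.25 and 13.5. Only 20 lost regions lay within 50 kb of another, and the share of merged regions that were lost ran from 0.752% on chromosome 21 to 1.72% on chromosome 4.

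Lost regions lay about as far from regions of all 4 lists as other regions did. The nearest region of all 4 lists was a median of 16.4 kb away, against 15.4 kb over the 11669 merged regions that were not themselves in all 4 lists, and 134 lost regions (24.0%) had one within 5 kb, against 26.3% of gained regions and 24.2% of those just outside the rule. The nearest protein-coding gene had a region in all 4 lists at a start site in 379 cases (67.9%, 63.9 to 71.7), against 62.5% for gained regions (58.4 to 66.3), 66.2% for those just outside the rule (63.8 to 68.6) and 77.9% for all merged regions (77.5 to 78.3). The interval of the lost regions overlaps the first 2 of these and lies below the last.

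Lost and gained regions were set side by side for the motifs of factors downstream of Fn14 and of other common factors. An NF-κB match in the 1000 bp around the midpoint was found in 46 lost regions (8.24%, 6.24 to 10.8) and in 111 gained regions (19.5%, 16.4 to 22.9), beside 9.37% in the regions just outside the rule and 12.7% of all merged regions. The intervals of lost and gained regions did not overlap. The AP-1 motif was in 122 lost regions (21.9%, 18.6 to 25.5) and 143 gained regions (25.1%, 21.7 to 28.8), with 20.4% over all merged regions. Both motifs were in 13 lost regions and neither in 403.

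The intervals of lost and gained regions overlapped for the other motifs searched except SP/KLF. The forkhead motif TGTTTAC was in 23.3% of lost regions (20.0 to 26.98), 18.8% of gained ones (15.8 to 22.2) and 20.2% of all merged regions, and the GATA motif AGATAA in 47.3% (43.2 to 51.5), 54.6% (50.5 to 58.6) and 44.8%. The RUNX motif TGTGGT was in 53.2%, 50.4% and 46.2% of the same sets, the TEAD motif ACATTCC in 15.9%, 17.0% and 14.4%, and the TFAP2 motif GCCNNNGGC in 28.5%, 26.0% and 35.1%. The E-box CACGTG was in 9.68%, 10.9% and 12.2%, the CTCF core CCACNAGG in 12.7%, 14.2% and 13.4%, and the ETS motif CCGGAAG in 3.76%, 4.39% and 9.45%. The steroid receptor motif was in 2.51%, 2.63% and 1.43%, and both the CRE motif TGACGTCA and the GRHL motif AACCGGTT in 0.358% of lost and 0.702% of gained regions, with 1.35% and 0.497% of all merged regions. The SP/KLF motif GGGCGG was in 14.0% of lost regions (11.3 to 17.1), 21.1% of gained (17.9 to 24.6) and 32.3% of all merged regions. The median GC content was 42.9% for lost and 43.1% for gained regions. The composition of a CpG island was found in 15 lost regions (2.69%, 1.64 to 4.39), 6.67% of gained regions (4.90 to 9.02) and 19.1% of all merged regions. Here too the intervals of lost and gained regions did not overlap. All motifs were searched on both strands, and regions of the same libraries are not replicates, so the intervals cover counting error only.

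**Figure D4:**
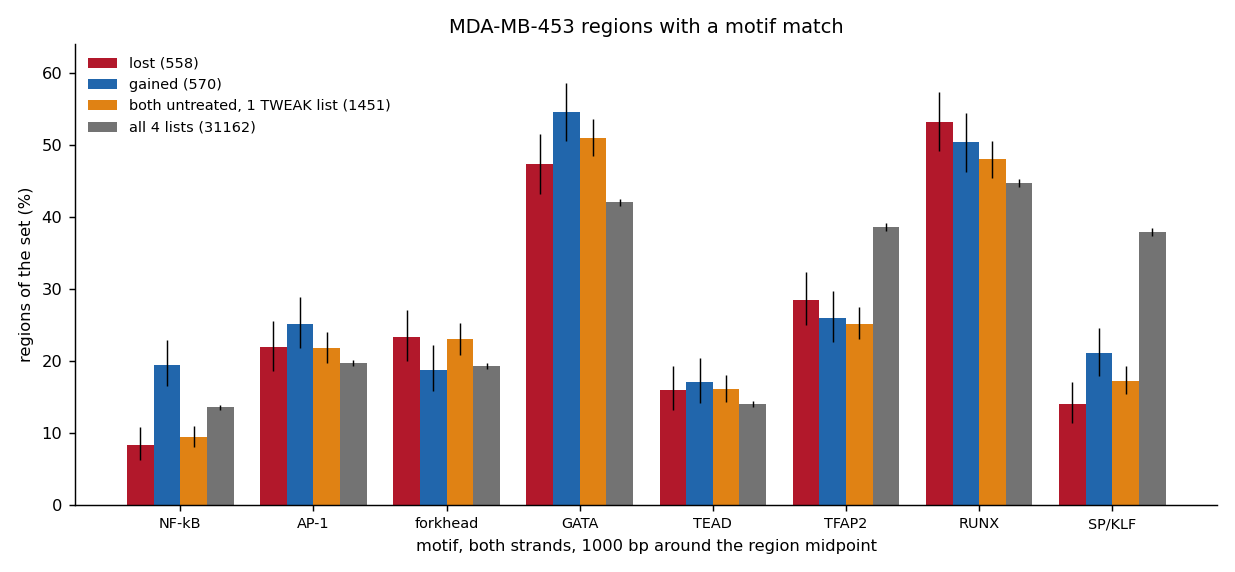
Share of regions (%, bars, with 95% Wilson intervals as lines) with a match to each motif in the 1000 bp around the midpoint, for lost, gained, just-outside and all-4-list regions. The NF-κB bars stand at 8.24% for lost and 19.5% for gained regions, and SP/KLF is highest in regions of all 4 lists.

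Genes of the NF-κB pathway were nearest to 3 lost regions of 120 merged regions assigned to that list (2.5%, where 1.30% of all merged regions were lost). The region 26.0 kb from NFKB1, the gene of p105/p50, had percentiles of 19.9 and 32.8, that 33.3 kb from NFKBIA had 4.38 and 12.2, and that 428.0 kb from CD83 had 4.74 and 0.806. The promoters of NFKB1, NFKB2 and NFKBIA themselves had a peak in all 4 lists. Genes of TWEAK and the TNF receptor family had 0 lost regions of 46, which allows a share of up to 6.52%, and the promoter of TNFRSF12A, the gene of Fn14, had a peak in all 4 lists, at percentiles between 80.3 and 84.5. Of 152 regions assigned to genes of AP-1, small MAF and NRF2 factors, 2 were lost (1.32%), the NFE2L1 start and a region 188.0 kb from MAF with percentiles of 15.2 and 20.0.

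Among 384 regions of luminal and epithelial transcription factors, 5 were lost (1.30%, the same share as over all merged regions). They lay near SOX9, with percentiles of 4.02 and 37.5, ESR1, with 9.96 and 12.8, GATA3, with 11.5 and 8.20, IRX5 and TBX3. Genes of ERBB receptors, ligands and adaptors had 1 of 179 (0.559%), near the RAS exchange factor SOS1.

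Signalling and integrin lists held few lost regions each. TGF-β and BMP genes had 3 of 204 (1.47%), near ACVR2A, BMP4 and INHBB. Hippo genes had 3 of 143 (2.10%), in introns of AMOTL1 and VGLL4 and near FAT4. Wnt genes had 1 of 217 (0.461%), in ROR2, and Notch genes 1 of 106 (0.943%), in the ligand gene JAG1. Integrin genes had 2 of 81 (2.47%), in ITGA2 and near ITGA6. Guidance genes (semaphorins, ephrins and their receptors) had 4 of 323 (1.24%), near EFNA5, EPHA2 and SEMA6D and in NRP1, and potassium channel genes 1 of 174 (0.575%), near KCNF1.

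The larger families gave more regions at similar shares. Solute carrier genes, which encode membrane transporters, had 15 lost regions of 801 (1.87%), led by SLC43A1 and SLC7A5 and followed by an intron of SLC25A24, a mitochondrial carrier, with percentiles of 29.7 and 22.2. Zinc finger ZNF genes had 18 of 813 (2.21%), of which ZNF365 was highest with 30.2 and 18.4, and ZNF692 and ZNF91 were each nearest to 2. The list of ubiquitous promoters, kept as a check, had 1 of 45 (2.22%), a region 0.677 kb from a start of PGK1. With 1 to 18 regions a list and no test, none of these shares is called different from 1.30%.

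The region near NAMPT, the gene of the rate-limiting enzyme of NAD salvage and the locus the study follows, was intergenic at chr7:106365229-106365997, 79.3 kb upstream of the nearest start. It was the 1 lost region of 62 assigned to NAD genes (1.61%). Its −log10 q was 2.25 and 2.30 in the untreated lists and its percentile 13.8 and 17.2, and the untreated peaks shared only 44 bp. The promoter region of NAMPT was present in all 4 lists at percentiles between 88.8 and 90.6. In SKBR3 the region had a peak in all 4 lists, at percentiles of 40.3 and 24.8 in untreated cells and 67.9 and 74.9 after TWEAK. The SKBR3 groups did not overlap, and the direction there was opposite to the loss in MDA-MB-453. In the paper, the super-enhancer it follows lies downstream of the NAMPT promoter, whereas this region is upstream by gene direction. Their positions were not compared by coordinate. The paper reports that TWEAK raised NAMPT and that super-enhancer in TNBC lines and not in HER2 lines.

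SKBR3 lists took no part in choosing the lost regions, so the state there is an independent measure. Of the 558, 243 (43.5%, 39.5 to 47.7) had a peak in at least 1 SKBR3 list and 138 (24.7%, 21.3 to 28.5) in all 4. The other 315 (56.5%) had a peak in none, against 35.0% of all merged regions and 57.8% of those just outside the rule. Regions just outside the rule had 42.2% in any SKBR3 list (39.7 to 44.7) and 24.1% in all 4. The gap to all merged regions was thus shared by these weak regions and was not particular to lost ones. Lost regions were also narrower, with a median of 783 bp against 1478 bp over all merged regions. The part of width and rank in this gap was not tested. Gained regions were close to the lost ones, with 47.7% in any SKBR3 list (43.6 to 51.8) and 28.1% in all 4 (24.5 to 31.9). By list, the untreated SKBR3 replicates held 192 and 177 lost regions (34.4% and 31.7%) and the TWEAK replicates 192 and 198 (34.4% and 35.5%), where the shares of all merged regions were 55.5%, 57.9%, 55.8% and 60.2%. The list of TWEAK replicate 2 was the longest of the 4, with 51687 peaks, and the part of list length in these counts was not tested.

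Lost regions were also described by how many SKBR3 lists held them, without a test. The median GC content was 41.1% for the 315 regions in none, 45% for the 105 in 1 to 3 lists and 46.3% for the 138 in all 4. The share within 1 kb of a TSS was 8.57%, 21.0% and 14.5% in the same order, and was highest in the middle set. The AP-1 motif was in 16.8%, 26.7% and 29.7%, beside 20.4% of all merged regions, and the NF-κB motif in 6.03%, 13.3% and 9.42%. Their mean percentile in untreated MDA-MB-453 had medians of 11.3, 10.9 and 10.8. A peak in any SKBR3 list was found for 47.9% of the 140 lost regions of lowest mean percentile and for 40.7% of the 140 of highest.

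The 138 lost regions in all 4 SKBR3 lists had a median SKBR3 percentile of 59.4, below the 74.0 of all merged regions in all 4 SKBR3 lists and beside 63.6 for gained regions and 60.3 for those just outside the rule. A few of them ranked high in SKBR3, and 14 exceeded a percentile of 90. An intron of MARCHF10, a ubiquitin ligase gene, had MDA-MB-453 percentiles of 1.90 and 11.9 and SKBR3 percentiles of 99.8 and 99.6 without TWEAK and 99.6 and 99.4 with it. An intron of TUBA4A, an alpha tubulin gene, had 10.1 and 15.5 in MDA-MB-453 and between 98.5 and 99.8 in SKBR3. They were followed by WASHC5, SPRY4, an inhibitor of receptor tyrosine kinase signalling, AIMP2 and TTC7B, with mean SKBR3 percentiles of 98.3, 97.8, 97.8 and 97.7. All 6 had overlapping SKBR3 groups.

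In SKBR3, 33 of the 138 lost regions (23.9%, 17.6 to 31.7) had a higher percentile in both TWEAK lists than in both untreated lists, where 17.0% of all merged regions in all 4 SKBR3 lists did. In the opposite direction, 18 (13.0%, 8.41 to 19.7) were lower in both, where the share over all such regions was 19.1%. The first interval begins just above its background, at 17.6 against 17.0%, and the second includes its own. This reading is not a test. Regions of the same libraries are not replicates, so these intervals cover counting error only. At or below a mean SKBR3 percentile of 59.4, the median of the 138, 15 of 69 lost regions were higher (21.7%, against 16.2% of all merged regions). Above it, 18 of 69 were (26.1%, against 17.3%). No interval was taken for these smaller sets, and their difference from all merged regions was not tested. With 1 SKBR3 list left out, a looser criterion, between 47 and 69 lost regions were higher and between 32 and 51 lower. The share that was higher stayed above that of all merged regions each time, in counts that reuse the same lists. The widest gap was 48.6% against 37.2%, without TWEAK replicate 1. Without TWEAK replicate 2 the gap was closest (32.0% against 27.8%), and 47 regions were higher and 47 lower. Gained regions had 33.8% higher (26.9 to 41.4) and 10.6% lower, and regions just outside the rule 21.1% (17.2 to 25.7) and 14.0%. The SKBR3 change of the 138 regions, TWEAK minus untreated, had a median of 0.80 percentile points and ran from -37.4 to 47.8. The share of peaks with a q-value under 1e-05 differed among the SKBR3 libraries, from 39.4% to 52.6% in the untreated replicates and from 48.3% to 48.8% in the TWEAK replicates, and its part in these ranks was not tested.

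Among the 22 named lost regions in all 4 SKBR3 lists, 4 were higher in both TWEAK lists, 2 were lower and 16 overlapped. Over all merged regions in all 4 SKBR3 lists, 17.0% were higher and 19.1% lower. The share of named regions that were higher is thus near that of all merged regions. Beside NAMPT, the higher ones were an intron of ITGA2, the integrin alpha 2 gene, with 37.8 and 25.7 untreated and 47.2 and 66.5 after TWEAK, and regions near ARHGAP5 and SLC4A7. The lower ones lay near INHBB, with 90.5 and 93.0 against 89.0 and 84.9, and near NFKBIA, with 83.8 and 83.6 against 82.3 and 82.3. The region near SLC7A5 spanned 43.2 to 88.4, with replicate 1 above replicate 2 in both groups.

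**Figure D5:**
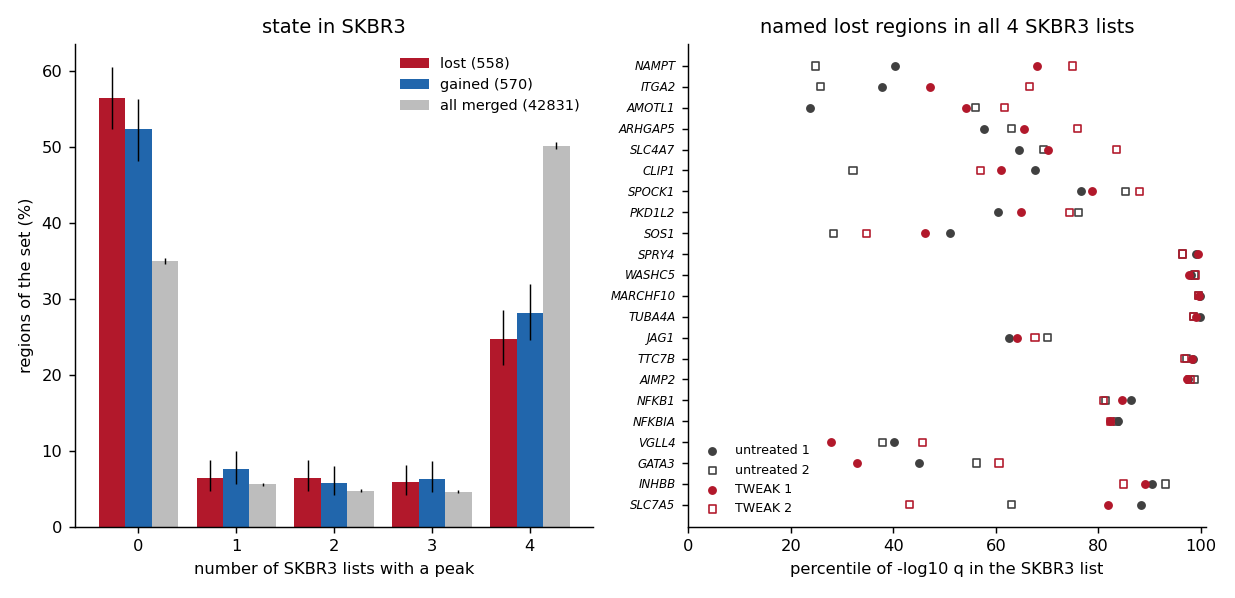
Left, share of regions (%, bars, with 95% Wilson intervals as lines) by the number of SKBR3 lists with a peak, for lost, gained and all merged MDA-MB-453 regions. Right, SKBR3 percentiles of the 22 named lost regions present in all 4 lists (grey, untreated, and red, TWEAK), sorted by TWEAK minus untreated, with NAMPT at 38.9 points on top and SLC7A5 at -13.2 at the bottom.

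By presence alone, 9 lost regions (1.61%) were in both SKBR3 TWEAK lists and neither untreated list, where 1.10% of all merged regions were, and 4 (0.717%) showed the reverse, where 0.700% did. The regions lost in both lines lay in introns of PRAG1, KIF2A, a kinesin gene, and CLU, the clusterin gene, and near LYPD2. Their SKBR3 percentiles were between 2.09 and 45.6, and in MDA-MB-453 none had a percentile over 21.3. The opposite pattern was seen near IGFBP3, the gene of an insulin-like growth factor binding protein, where the SKBR3 percentile was 91.7 and 97.7 after TWEAK and the MDA-MB-453 percentile 3.44 and 14.6 without it.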

How the data were processed

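H3K27ac ChIP-seq peak lists of 2 cell lines, with 2 untreated and 2 TWEAK libraries each, were analysed (8 lists). The 2 input samples have no list and were not used here. Per the labels and the methods, reads were trimmed with Trimmomatic and mapped to hg38 with Bowtie2, and the authors called peaks in each library with MACS2 (versions not given in the sources used here). Beside position, the deposited lists hold 4 values that the authors' caller wrote for every peak, which are an integer score, the fold enrichment as a ratio to background, and p-value and q-value as −log10. The score was not used. Reads were not analysed. The number of peaks in a list therefore depends on an unknown depth and enrichment, and a region without a peak can hold signal that missed the threshold of the caller. Presence and rank within a list replaced the comparison of read signal that the methods describe.

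Peaks overlapping by 1 bp were merged (Python 3.11.15, pandas 2.3.3, numpy 2.4.6). A region's percentile is that of the −log10 q of its strongest peak within its own list. Genes came from GENCODE release 44, matched to hg38 coordinates, with 0 sequence names and 0 peaks outside the reference. Each region was assigned to the nearest protein-coding TSS and to the gene body over its midpoint (host), and counted for a gene list through either. Motifs were searched in 1000 bp around the midpoint (pysam 0.24.0), NF-κB as a degenerate 10-letter consensus. A CpG island composition meant GC over 50% and an observed to expected CpG ratio over 0.6. Intervals are 95% Wilson intervals (scipy 1.17.1). The presence rule and motif search were tested on simulated lists.

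The lost regions, the 19 gene lists and the comparisons were chosen with earlier results of these data known. Some regions and 3 of the lists are not reported here. Regions named are the 12 of highest mean percentile, the 8 highest at protein-coding starts, genes nearest to 3 or more, members of the gene lists, the 6 highest in SKBR3, those gained or lost in SKBR3 and the one near NAMPT. Labels give replicates no source beyond a number, and the methods state biological replicates for cell lines. Alternatives were a q-value under 1e-05, lists of equal size, cover of 50% of the region, merging across 1 kb, every sequence, a TSS window of 2.5 kb, motif windows of 500 bp or the whole region, ranking by fold enrichment, a replicate block, and leaving out each library.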

Additional observations from a re-analysis of the deposited data

Results flagged for a closer look

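Lost regions that moved in opposite directions in the 2 lines are given for 13 regions, 9 by presence and, among the regions named by rule, 4 by rank. The difference between the lines was not tested, and the MDA-MB-453 side is fixed by the rule that chose the regions.

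By presence, 9 lost regions had a peak in both SKBR3 TWEAK lists and in neither untreated SKBR3 list, a share of 1.61% whose interval (0.851 to 3.04) includes the 1.10% of all merged regions. The region 225.4 kb from IGFBP3 had the highest mean SKBR3 percentile after TWEAK, 94.7, and the next was an intron of MFSD1 at 56.7. The mean was 41.1 in CTDSP2, 35.6 at a start of a non-coding gene in PCDH9, 32.6 near SOX11 and 23.001 near IL12B. It was 15.8 near TEKT1, 15.3 near RAD23B and 7.16 near SIRPB2.

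By rank, 4 of the 22 named lost regions in all 4 SKBR3 lists were higher in both TWEAK lists than in both untreated lists. That share is near the 17.0% of all merged regions in all 4 SKBR3 lists. Over all lost regions 33 of 138 were higher (23.9%). The rise in mean percentile, TWEAK minus untreated, was 38.9 points near NAMPT and 25.1 in ITGA2. It was 10.3 near ARHGAP5 and 9.87 near SLC4A7. SKBR3 TWEAK replicate 2 was the highest of the 4 lists in each of these regions.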

How the results depend on the processing

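Of 72 values under an alternative setting, 44 stayed within 1.5 times the count or within the interval of the share, and 28 moved. The 44 include the presence values of the replicate block, which is the same rule, so these could not move. At a q-value under 1e-05, 320 regions were lost. Of these, 19.1% were within 1 kb of a TSS, 26.2% held the AP-1 motif, 37.5% had a peak in any SKBR3 list and 20.6% in all 4. None of the 558 could be among them, since none reached that q-value in both untreated lists. A cover of at least 50% of the region gave 876 lost regions and kept 341 (61.1%) of the 558. Lists of equal size gave 593 and kept 438 (78.5%), merging across 1 kb gave 568 and kept 541 (97.0%), and the 12 highest regions remained lost under these 3 settings. Every sequence gave 559. A TSS window of 2.5 kb gave a share of 19.0%. A motif window of 500 bp gave 3.58% for NF-κB and 13.6% for AP-1, and the whole region 5.20% and 17.2%, since the window is shorter.

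Leaving out 1 MDA-MB-453 list gave between 1164 and 2319 lost regions, because fewer lists had to agree, with a peak in any SKBR3 list in 38.6% to 44.1% and in all 4 in 20.6% to 25.2%. Leaving out 1 SKBR3 list gave 47 to 69 regions ranked higher with TWEAK and 32 to 51 ranked lower, with 47 of each without TWEAK replicate 2. Ranking by fold enrichment gave 34 and 16, and moved the mean percentile of 5 of the 12 highest regions by more than the spread between replicates.

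As a replicate block, the presence rule is the same rule and gave 558. For SKBR3 ranks, the replicate block gave 50 higher (36.2%, against 28.2% of all merged regions) and 40 lower (29.0% against 33.8%), a looser criterion than no overlap. The correlation of same-numbered deviations, over 2 pairs each, was 0.331 across SKBR3 regions and -0.0373 across MDA-MB-453 regions. Same-numbered SKBR3 lists thus deviated together in part. The labels give no pairing, and the main SKBR3 counts were made without it. Without reads, a weak region cannot be told from one just under the threshold.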

Other observations

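Presence in SKBR3 followed the replicate number in a small group of lost regions. A peak in both replicate 1 lists of SKBR3, untreated and TWEAK, and in neither replicate 2 list was found for 14 lost regions (2.51%), where 0.448% of all merged regions had that pattern. The converse, both replicate 2 lists and neither replicate 1 list, was found for 6 (1.08%), where 1.78% of all merged regions had it. The library-specific part of this pattern was not tested.

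Outside chromosomes 1 to 22 and X, the MDA-MB-453 lists gave 60 merged regions, of which 1 was lost and 1 gained.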
